A study of Mus musculus with 6 samples.

Results

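The genes described here are the amino acid transporters of the solute carrier families Slc1, Slc3, Slc6, Slc7, Slc36, Slc38 and Slc43, picked by gene symbol and each represented by its probe of highest mean signal. The symbol rule matched 58 of the 19057 named genes of the array. Slc7a6os carries its symbol only because it lies opposite Slc7a6 and is no carrier, so it was set apart, which left 57 genes with 118 probes. Of these 57 genes, 20 had a brightest probe detected at a p under 0.05 on 3 or more of the 6 arrays, and these were tested. The family name covers more than the plasma membrane: Slc38a7, Slc38a9 and Slc36a1 are known from lysosomes, and several Slc6 genes carry monoamines, GABA, taurine or creatine. Slc43a3 is known as a nucleobase carrier.

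The RNA came from sorted bone marrow cells of mice, positive for B220 and CD43, early B-lineage cells by that gate and pre-B cells by the labels. There were 3 samples labelled Fnip1-null (Fnip1-/-) and 3 labelled wild type, each hybridised to 1 single-colour Illumina BeadChip. Fnip1 is a partner of folliculin. The labels give neither strain nor age, nor how the null allele was made, and do not say whether each sample came from its own mouse.

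Cells take up most amino acids through solute carriers. Slc7 light chains reach the plasma membrane with the heavy chain Slc3a2 (CD98). Sodium-coupled carriers such as Slc1a5 and the Slc38 system A proteins bring in glutamine and small neutral amino acids. Slc43 proteins such as Slc43a1 let large neutral amino acids through without an ion gradient. Inside the cell, amino acid levels at the lysosome are read by the Rag GTPases, which recruit mTORC1, and folliculin with its Fnip partners acts on the Rag proteins in that step.

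The letters A, B and C name the arrays of a genotype in column order. Between 17442 and 18294 of 45281 probes were detected per array, and pairs of arrays correlated at 0.989 to 0.994 within a genotype and 0.967 to 0.976 between genotypes. The brightest Fnip1 probe was at 10.01 ± 0.04 on the arrays labelled Fnip1-null and 9.06 ± 0.14 on those labelled wild type (normalised log2 intensity, SD, n = 3 each). Further detected Fnip1 probes were also higher on the arrays labelled Fnip1-null, by 0.78 and 0.88 (limma adjusted p = 0.00118 and 0.00851). The remaining probe was detected on no array. Transcript level thus does not bear out the labels, and where the probes lie relative to the altered part of the gene is not known here. Genotypes are therefore given as labelled. Xist was at 4.22 on Fnip1-null array A and 4.62 on wild-type array A, and at 9.51 to 10.79 on the other arrays. The scanner columns of the Fnip1-null arrays carry an extra tag whose meaning is not stated. If it marks a batch, batch and genotype cannot be told apart.

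Some markers of B-lineage and of other cells moved with genotype. By limma at an adjusted p under 0.05, 7.89% of all 9676 tested genes were higher and 5.25% lower. Of 10 tested B-lineage markers, Cd79b, Ebf1, Rag1 and Rag2 were lower, although the summed linear level of the list was 26143 to 29998 on the Fnip1-null arrays and 24707 to 30451 on the wild-type arrays. The other tested members of that list had values above 0 without a call, among them Dntt (0.57) and Ptprc (0.31), which had an unadjusted p under 0.05. Among 5 tested T cell markers Cd3e and Lat were higher, with sums of 1394 to 1885 on Fnip1-null arrays and 523 to 664 on wild-type arrays. Lat alone read 722, 1044 and 888 in raw signal on Fnip1-null arrays and 213, 175 and 151 on wild-type arrays. Cd3d, Cd3g and Cd4 were not called, and Cd8a was detected on no array. Of 5 tested basophil and mast cell markers Hdc was higher, and Mcpt8 (-1.03) and Prss34 (-1.33) were lower. Sums were 2918 to 5996 on Fnip1-null arrays and 1313 to 1555 on wild-type arrays. The higher sums follow Hdc, which read 3393, 5899 and 2518 in raw signal on Fnip1-null arrays and 369, 309 and 186 on wild-type arrays. Such sums do not count cells. Of 5 tested monocyte markers Cd14 and Ccr2 were lower, with sums of 5912 to 10395 on Fnip1-null arrays and 7493 to 9702 on wild-type arrays. No call was made by limma among the tested neutrophil, natural killer, plasmacytoid dendritic and erythroid markers, of which 2 neutrophil and 2 natural killer genes had an unadjusted p under 0.05, all lower. Siglech, which defines plasmacytoid dendritic cells, was detected on all 6 arrays, at 12.42 to 13.02. The plasmacytoid list summed to 21219 to 26883 on Fnip1-null arrays and 19137 to 23987 on wild-type arrays. Neutrophil sums were 12002.5 to 43386 on Fnip1-null arrays and 10754 to 26585 on wild-type arrays. The transporter values therefore cannot be assigned to B-lineage cells alone. Ncr1 and Pax5 were detected on none, and Cd79a has no probe of that symbol. Fewer cells of a type and less RNA per cell cannot be told apart in sorted bulk RNA, and the part of these shifts in the results on transporters was not tested.

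Of the 20 tested transporter genes, 3 rose on the arrays labelled Fnip1-null: the glycine carrier Slc6a9, the large neutral amino acid carrier Slc43a1 and the lysosomal glutamine carrier Slc38a7. A call is an adjusted p under 0.05 in limma, with Benjamini-Hochberg adjustment over all 18172 tested probes, and by that rule 7.89% of all 9676 tested genes were called higher and 5.25% lower. No tested transporter was called lower. Without adjustment 8 transporters had a p under 0.05, 5 higher and 3 lower, where 27.3% of all tested genes did, 15.5% higher and 11.8% lower. Of these transporters Slc7a4 and Slc43a3 (higher) and Slc6a13 (lower) reached 3 detected arrays only with the genotype in which they were brighter. They give that count no support. The 20 log2 fold changes (Fnip1-null minus wild type) had a median of 0.08, against 0.01 over all tested genes, with 11 above 0 and 9 below it. That median has no steady sign: it was -0.00910 with detection required on every array of a group, -0.00152 with no filter, 0.00791 by the probe of largest variance and 0.0193 without wild-type array A. Arrays of the genotypes did not overlap for 5 transporters that were higher and 2 that were lower. The 5 include Slc7a4 and Slc43a3, which met the detection rule only through the Fnip1-null arrays, where they were brighter. Among all tested genes 33.0% were separated, 18.1% upwards and 14.9% downwards. Counts this small are not read as particular to transporters. The count of 3 fell to 1 without wild-type array A, to 1 with no detection filter and to 1 in the authors' processed values with a replicate block. The count of genes called lower was 0 or 1 in every alternative tried.

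**Figure D1:**
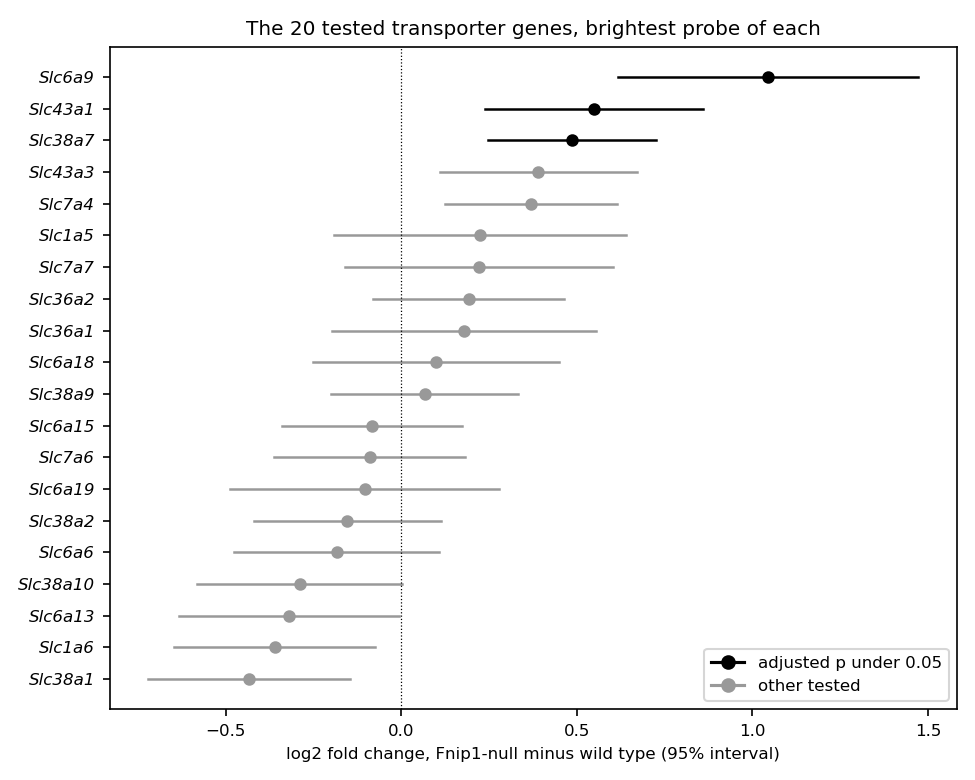
Log2 fold changes (x axis, Fnip1-null minus wild type) of the 20 tested transporter genes, one row per gene, with bars for the 95% interval from limma. Slc6a9, Slc43a1 and Slc38a7 at the top are past the adjusted threshold, and Slc38a1 at the bottom has the lowest value, -0.43.

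Most of the gene set was not measurable above background. The brightest probe of 29 genes was detected on no array and that of 8 genes on 1 or 2 arrays, while 13 genes were detected on all 6. Slc6a18 and Slc7a4, each detected on 3 arrays, were just inside the rule, and Slc38a5, Slc7a3, Slc7a13 and Slc7a14, each on 2, were just outside it. The share of transporter genes tested was 35.1%, against 50.8% of all named genes. The 37 genes not tested had raw signals of 28.5 to 57.7, with a median of 40.3, where the median signal of whole arrays was 40.5 to 44.3. By family, the tested genes were 2 of 7 in Slc1, 6 of 19 in Slc6, 3 of 14 in Slc7, 2 of 3 in Slc36, 5 of 10 in Slc38, 2 of 3 in Slc43 and 0 of 1 in Slc3. The gene table used holds 63 such carriers, and 6 of them had no probe of that symbol, among them Slc3a1, Slc7a5, Slc36a4 and Slc38a6. Slc7a5, the main CD98 light chain of dividing lymphocytes, is thus not analysed here.

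**Figure D2:**
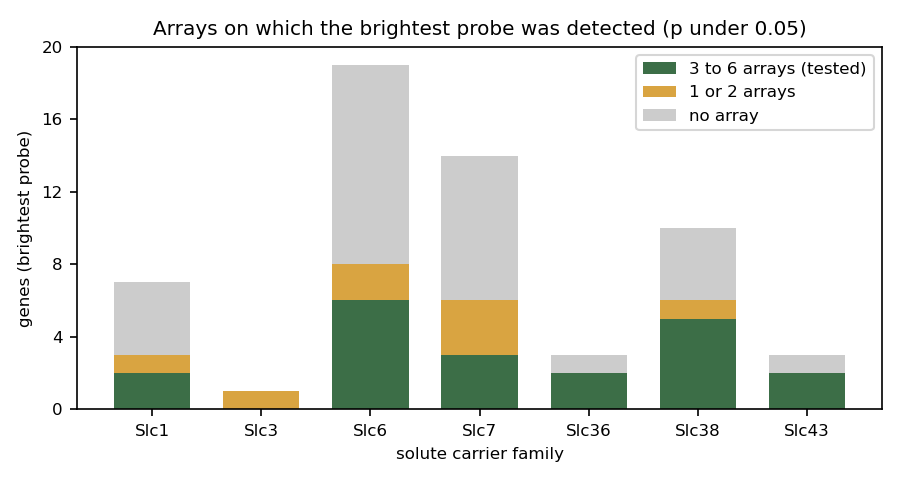
Number of genes per solute carrier family (y axis) by how many arrays detected the brightest probe, stacked as 3 to 6 arrays, 1 or 2 arrays and no array. Slc6 has the most genes, 19, of which 11 were detected on no array, and 5 of the 10 Slc38 genes were tested.

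Slc6a9 encodes the glycine transporter GLYT1, a sodium- and chloride-coupled carrier best known from glial cells and from haemoglobin-making red cell precursors. Its log2 intensity was 6.48, 5.86 and 6.19 on Fnip1-null arrays A, B and C, against 5.18, 5.41 and 4.81 on wild-type arrays A, B and C. Every Fnip1-null array lay above every wild-type array. The means were 6.18 ± 0.31 on Fnip1-null arrays and 5.13 ± 0.30 on wild-type arrays (SD, n = 3 each), a log2 fold change of 1.04 (SE 0.19, limma adjusted p = 0.00718), or 2.06-fold with a 95% interval of 1.53 to 2.78. In raw signal the same probe read 107, 83.9 and 96.0 on Fnip1-null arrays and 60.8, 64.2 and 47.2 on wild-type arrays, where the array medians were 40.5 to 44.3. The value was 0.62 with an offset of 50, 0.60 with no background correction and 1.63 in the authors' processed values. The call was lost with no detection filter (limma adjusted p = 0.0540) and in the authors' values with a replicate block (limma adjusted p = 0.0640). The other Slc6a9 probe was detected on no array. Erythroid markers summed to 724 to 2892 on Fnip1-null arrays and 1391 to 2082 on wild-type arrays. Of these markers 2 were tested, and the haemoglobin gene Hba-a1 differed by -0.32 (limma adjusted p = 0.662). Whether red cell precursors carried any of the Slc6a9 signal was not tested.

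Slc43a1 encodes LAT3, a facilitated carrier of leucine and other large neutral amino acids. It was at 7.82, 8.33 and 8.0 on Fnip1-null arrays and at 7.52, 7.45 and 7.52 on wild-type arrays. All Fnip1-null arrays (SD 0.26) were above the wild-type arrays (SD 0.04). Its log2 fold change was 0.55 (SE 0.14, limma adjusted p = 0.0296), or 1.46-fold with an interval of 1.18 to 1.81. A further tested probe of the gene gave 6.15, 6.71 and 6.67 on Fnip1-null arrays and 6.06, 5.96 and 6.10 on wild-type arrays, a log2 fold change of 0.47 that did not pass (limma adjusted p = 0.0763). This call is the least steady of the 3: it was kept when Fnip1-null array A was left out (0.67) and lost when any other array was, with values of 0.41 to 0.58 and limma adjusted p of 0.0581 to 0.0907.

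Slc38a7 encodes SNAT7, known as the carrier by which glutamine leaves lysosomes. It was at 5.70, 5.60 and 5.64 on Fnip1-null arrays and at 5.02, 5.21 and 5.25 on wild-type arrays. The groups did not overlap, and the Fnip1-null arrays spread less (SD 0.05) than the wild-type arrays (SD 0.12). The log2 fold change was 0.49 (SE 0.11, limma adjusted p = 0.0168), or 1.40-fold with an interval of 1.19 to 1.65, from the only probe of the gene. Raw signals were 72.2, 73.7 and 72.7 on Fnip1-null arrays and 56.8, 58.6 and 56.6 on wild-type arrays. The call was lost without wild-type array A (0.42, limma adjusted p = 0.0555), and the value was 0.27 with an offset of 50, 0.26 with no background correction and 0.81 in the authors' processed values, where a replicate block ended the call (limma adjusted p = 0.0536). For each of the 3 called genes the exact two-sided permutation p over arrays was 0.1, and with 3 arrays a group no smaller value is possible.

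**Figure D3:**
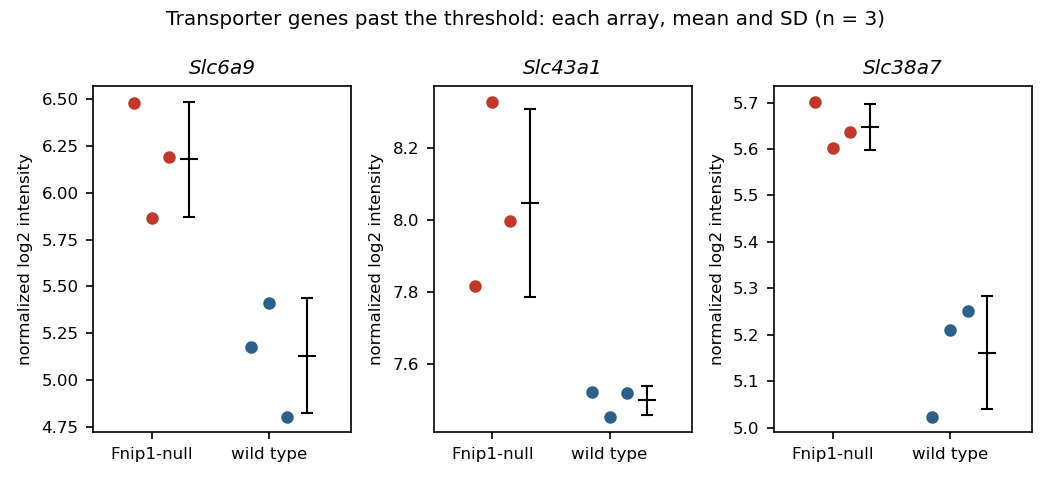
Normalised log2 intensity (y axis) of Slc6a9, Slc43a1 and Slc38a7 on each array, with mean and SD (n = 3) beside the points, Fnip1-null left and wild type right. In each panel all Fnip1-null points lie above all wild-type points, and the y axes do not start at 0.

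The 3 called genes are shown with the 250 bases before their annotated start (RefSeq, GRCm38.p6), because the sequence CACGTG, read alike on both strands, is the core bound by helix-loop-helix factors such as TFEB and TFE3. In these lines lower case is plain sequence and capitals mark CACGTG. Slc38a7 lies at chr8:95853492-95853741 on the minus strand, Slc43a1 at chr2:84840073-84840322 on the plus strand, and Slc6a9 at chr4:117835008-117835257 on the plus strand, the most upstream of its 3 annotated windows.
Slc38a7: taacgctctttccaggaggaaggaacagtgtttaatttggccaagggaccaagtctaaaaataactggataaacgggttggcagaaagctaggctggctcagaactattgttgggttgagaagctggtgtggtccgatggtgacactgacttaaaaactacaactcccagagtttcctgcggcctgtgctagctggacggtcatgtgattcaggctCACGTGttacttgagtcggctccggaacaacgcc
Slc43a1: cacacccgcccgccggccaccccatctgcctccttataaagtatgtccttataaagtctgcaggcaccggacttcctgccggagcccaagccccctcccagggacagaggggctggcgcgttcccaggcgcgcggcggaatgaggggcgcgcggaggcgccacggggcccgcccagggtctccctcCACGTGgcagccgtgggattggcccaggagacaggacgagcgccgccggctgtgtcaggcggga
Slc6a9: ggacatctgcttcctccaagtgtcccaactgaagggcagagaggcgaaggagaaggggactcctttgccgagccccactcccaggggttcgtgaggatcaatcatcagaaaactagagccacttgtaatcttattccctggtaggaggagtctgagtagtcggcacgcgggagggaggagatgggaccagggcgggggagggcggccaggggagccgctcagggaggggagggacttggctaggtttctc
The match begins 34 bases before the start in Slc38a7 and 64 bases before it in Slc43a1, and none of the Slc6a9 windows holds one. In all, 6.02% of 32851 promoter windows hold CACGTG. Promoter windows were found for 41 of the 57 transporter genes, and 8 of their 62 windows hold it, one each of Slc1a6, Slc1a7, Slc6a3, Slc7a14, Slc36a1, Slc38a5, Slc38a7 and Slc43a1. Of these, Slc1a6 and Slc36a1 were tested and not called. The sequence TGATGCAA, the core of the amino acid response element bound by ATF4, was found on either strand in 0.791% of all windows, in 2 transporter windows (Slc7a7 and Slc7a11) and in no window of a called gene. A match is a description of the letters, not a bound site.

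Among heavy and light chains, no gene passed. The only probe of Slc3a2, the CD98 heavy chain, read 4.58, 4.77 and 4.73 on Fnip1-null arrays and 4.57, 4.60 and 4.46 on wild-type arrays, and was detected on 1 Fnip1-null array, so it gives no measure of CD98. Of 9 light chain genes 2 were tested. Slc7a7, a light chain that exchanges cationic for neutral amino acids, was at 6.95, 7.53 and 7.37 on Fnip1-null arrays and 6.81, 7.21 and 7.17 on wild-type arrays, with overlap (0.22, limma adjusted p = 0.439). Slc7a6, its close relative, was at 6.36, 6.59 and 6.40 on Fnip1-null arrays and 6.60, 6.37 and 6.66 on wild-type arrays, also overlapping (-0.09, limma adjusted p = 0.678). Slc7a8, a light chain for neutral amino acids, and Slc7a11, the cystine and glutamate exchanger, were not well above background with any of their probes, 5 of them for Slc7a11.

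Of the 4 genes classed as cationic carriers only Slc7a4 was tested, and Slc7a1, the main arginine carrier of many cells, was not well above background. Slc7a4, whose own transport activity is unsettled, was at 5.06, 4.85 and 4.94 on Fnip1-null arrays and 4.53, 4.52 and 4.69 on wild-type arrays. It was detected on all 3 Fnip1-null arrays and on 0 wild-type arrays, so its wild-type level was not measured. The mean of the Fnip1-null arrays was 1.14-fold that of the lowest detected signals of the wild-type arrays. That figure has no error term and sets no lower limit on a rise. It entered the test only through the arrays on which it was brighter, so its limma adjusted p of 0.0525, and a call under some alternatives, give no support for a rise.

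In the Slc1 family, Slc1a5 (ASCT2), the sodium-dependent glutamine exchanger of proliferating cells, was at 8.58, 9.29 and 9.10 on Fnip1-null arrays and 8.66, 8.65 and 8.98 on wild-type arrays. Fnip1-null array A lay below all wild-type arrays while B and C lay above them, and the log2 fold change was 0.22 (interval -0.19 to 0.64, limma adjusted p = 0.474). Its other tested probes gave 0.20 and 0.14. Slc1a6, a glutamate carrier known from the cerebellum, was at 5.03, 5.12 and 4.97 on Fnip1-null arrays and 5.31, 5.64 and 5.25 on wild-type arrays, without overlap (-0.36, limma adjusted p = 0.0943). Slc1a4, a carrier of serine and alanine, was not well above background.

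System A carriers, which take up glutamine and alanine with sodium, gave no call. Slc38a1 (SNAT1) was at 7.71, 8.08 and 7.88 on Fnip1-null arrays and 8.47, 8.23 and 8.27 on wild-type arrays. All 3 Fnip1-null arrays lay below the wild-type arrays, and the log2 fold change of -0.43 (SE 0.13) had a limma adjusted p of 0.0524. Its further tested probes gave -0.13 and -0.38. Slc38a1 was called lower under 5 of 16 alternatives, among them an offset of 50 (-0.39) and leaving out Fnip1-null array B (-0.53). Slc38a2 (SNAT2), which cells raise when amino acids are short, was at 11.90, 11.81 and 11.71 on Fnip1-null arrays and 12.00, 11.78 and 12.10 on wild-type arrays, with overlap (-0.15, limma adjusted p = 0.440). A further Slc38a2 probe detected on all 6 arrays gave 0.04 (limma adjusted p = 0.866), so the probes differ in sign. Of the 2 system N genes neither was tested, and Slc38a5 was detected on 1 Fnip1-null and 1 wild-type array.

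The remaining Slc38 genes include Slc38a9, a lysosomal protein that senses arginine for mTORC1. Its brightest probe read 8.47, 8.32 and 8.44 on Fnip1-null arrays and 8.15, 8.44 and 8.44 on wild-type arrays, with overlap (0.07, limma adjusted p = 0.765). Its probes disagree: a further one gave -0.12, and the dimmest tested one was at 5.62, 5.88 and 5.81 on Fnip1-null arrays and 6.11, 6.37 and 6.12 on wild-type arrays, a fall of the probe's signal by 0.43 on the log2 scale (limma adjusted p = 0.0452). No direction is given for the gene. Slc38a10, a neutral amino acid carrier, was at 7.39, 7.48 and 7.61 on Fnip1-null arrays and 7.86, 7.55 and 7.93 on wild-type arrays, with overlap (-0.29, limma adjusted p = 0.179), and its other tested probes gave 0.03 and -0.21.

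**Figure D4:**
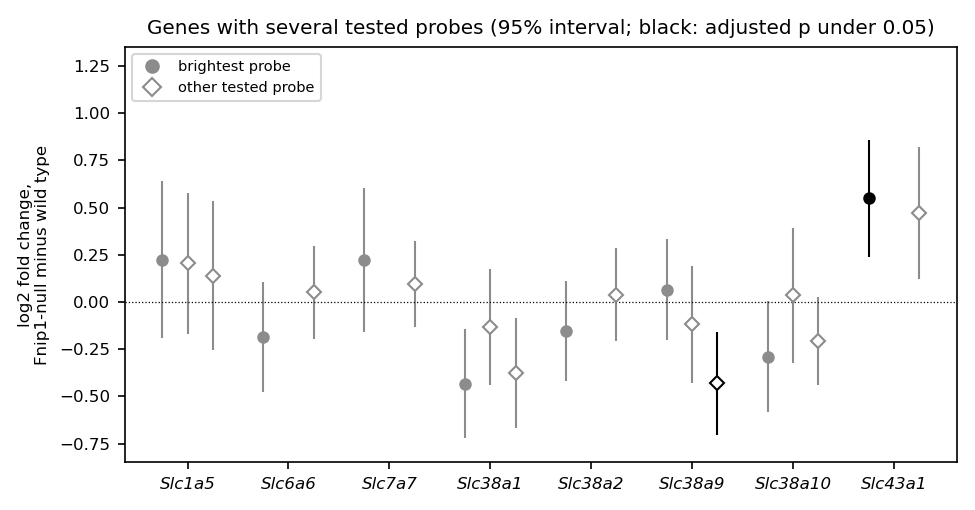
Log2 fold changes (y axis, Fnip1-null minus wild type, bars 95% interval) of every tested probe of the 8 transporter genes with more than 1 tested probe, filled circles for the brightest probe and open diamonds for the others. Black marks an adjusted p under 0.05, reached by the brightest Slc43a1 probe and by the dimmest tested Slc38a9 probe, at -0.43.

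Proton-coupled carriers of small neutral amino acids showed no call. Slc36a1, which moves amino acids out of lysosomes, was at 5.43, 4.87 and 4.79 on Fnip1-null arrays and 4.82, 4.77 and 4.96 on wild-type arrays. Fnip1-null array A stood above the rest, and the value of 0.18 (limma adjusted p = 0.532) was -0.02 without it. Slc36a2, a carrier of glycine and proline, was at 4.92, 4.79 and 5.0 on Fnip1-null arrays and 4.86, 4.53 and 4.75 on wild-type arrays, with overlap (0.19, limma adjusted p = 0.342). Detected on 3 Fnip1-null arrays and 1 wild-type array, it met the detection rule only through the genotype with the higher mean.

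In the Slc43 family, Slc43a3, known as a nucleobase carrier, was at 5.11, 5.12 and 4.83 on Fnip1-null arrays and 4.49, 4.64 and 4.76 on wild-type arrays. The arrays did not overlap, detection was on 3 Fnip1-null arrays and 1 wild-type array, and the log2 fold change of 0.39 did not pass (limma adjusted p = 0.0691). Slc43a2 (LAT4), the relative of Slc43a1, was not well above background.

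Of the Slc6 family, 10 genes carry amino acids and 4 of them were tested, of which Slc6a9 alone was called. The neutral amino acid carriers Slc6a15, Slc6a18 and Slc6a19, 2 of them known from kidney, had overlapping arrays at 4.51 to 5.32 on Fnip1-null arrays and 4.53 to 5.17 on wild-type arrays. Their log2 fold changes were -0.08 for Slc6a15, 0.10 for Slc6a18 and -0.11 for Slc6a19, all with a limma adjusted p above 0.05. Of the 9 other Slc6 genes 2 were tested. Slc6a6, the taurine transporter, was at 10.35, 10.09 and 10.06 on Fnip1-null arrays and 10.23, 10.54 and 10.28 on wild-type arrays, with overlap (-0.18, limma adjusted p = 0.395). Slc6a13, a carrier of GABA and taurine, was at 5.17, 4.69 and 4.87 on Fnip1-null arrays, 2 of which detected it, and 5.23, 5.35 and 5.12 on wild-type arrays (-0.32, limma adjusted p = 0.166). The 17 uncalled transporters had log2 fold changes of -0.43 to 0.39, and their 95% intervals ran from -0.72 at the lowest to 0.67 at the highest. A p that misses the threshold does not show that a gene was unchanged.

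**Figure D5:**
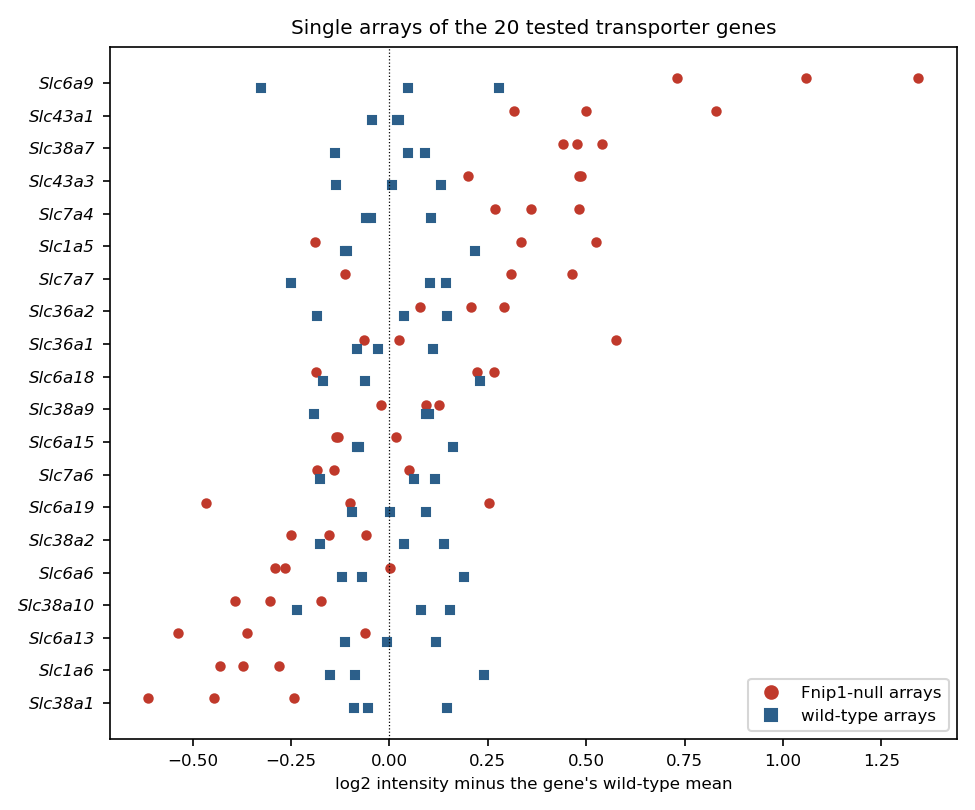
Log2 intensity of each array minus the gene's wild-type mean (x axis) for the 20 tested transporter genes, circles for Fnip1-null and squares for wild-type arrays. The circles lie right of all squares for Slc6a9, Slc43a1, Slc38a7, Slc43a3 and Slc7a4, and left of all squares for Slc38a1 and Slc1a6.

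A list of other carriers and channels, not all of them for amino acids or peptides, gave 4 called genes of 15 tested. All were higher (Ctns, Clcn7, Mcoln1 and Slc22a5), where 7.89% of all tested genes were called higher and 5.25% lower. This list was chosen with earlier results of these data known, so the count of 4 is no test of such genes. The list had a median log2 fold change of 0.14, and by limma 0 of its genes were lower (0 at an unadjusted p under 0.05). Ctns, the exporter of cystine from lysosomes, was at 9.82, 9.67 and 9.84 on Fnip1-null arrays and 8.54, 8.73 and 8.55 on wild-type arrays, far apart, with a log2 fold change of 1.17 (SE 0.11, limma adjusted p = 0.000193). Clcn7, a lysosomal chloride exchanger, was higher by 0.94 (limma adjusted p = 0.000951). Slc66a1, the lysosomal carrier of arginine and lysine, did not pass, at 7.10, 7.26 and 7.18 on Fnip1-null arrays and 7.0, 6.98 and 7.13 on wild-type arrays (0.14, limma adjusted p = 0.412). Ctns and Clcn7 were called under all 16 alternatives, and the list's count of higher genes was 3 without Fnip1-null array C and 2 without any one of the other 5 arrays.

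Genes that sense amino acids for mTORC1 gave 6 higher genes of 27 tested (Rragd, Flcn, Rragb, Wdr59, Rragc and Lamtor1), with a median of 0.06. The share called higher among all tested genes was 7.89%, and the share called lower 5.25%. This list too was chosen with earlier results of these data known, so the count of 6 is no test of such genes. None of the 27 was called lower by limma, and 2 were lower at an unadjusted p under 0.05. Some alternatives, an offset of 50 among them, called 1 gene lower. Rragd, a Rag GTPase, was at 8.10, 7.92 and 7.96 on Fnip1-null arrays and 5.59, 5.68 and 5.39 on wild-type arrays, a log2 fold change of 2.44 (SE 0.11). Flcn, folliculin itself, was higher by 1.31 and Rragb, another Rag GTPase, by 1.12. The count was 3 to 5 when 1 array was left out, and it was 3 without Fnip1-null array B, Fnip1-null array C, wild-type array A or wild-type array B. Rragd, Flcn and Rragb were called under all 16 alternatives, while Lamtor1 lost its call under 10 of them, Rragc under 8 and Wdr59 under 6.

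The ATF4 amino acid response, the programme that raises several of these carriers when amino acids are short, gave 3 higher and 1 lower gene of 20 tested, with a median of 0.00372. Calls over all tested genes were 7.89% higher and 5.25% lower, and counts this small are not read as particular to the programme. Over the alternatives its counts ran from 2 to 5 higher and from 0 to 3 lower genes. Trib3, a pseudokinase target of ATF4, was at 7.76, 7.61 and 7.35 on Fnip1-null arrays and 6.51, 5.99 and 5.89 on wild-type arrays (1.44, limma adjusted p = 0.000965). Psat1, a serine synthesis enzyme, was higher by 0.70 and Ddit4, an mTORC1 inhibitor, by 0.56, and the call of Ddit4 was lost under 7 of 16 alternatives. Mthfd2, a mitochondrial folate enzyme, fell by 0.55 on the log2 scale (limma adjusted p = 0.0108). Atf4 itself differed by -0.16 (limma adjusted p = 0.359), and Asns, the asparagine synthetase often used as its readout, was at 6.57, 6.17 and 6.51 on Fnip1-null arrays and 6.26, 6.55 and 6.20 on wild-type arrays, with overlap (0.08, limma adjusted p = 0.774).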

How the data were processed

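Total RNA of 6 sorted samples was read on Illumina BeadChips. Per the file headers, each array has a column of raw signal intensity and one of detection p-value in the scanner table, both used as the authors deposited them. Values the authors processed themselves stand in the series matrix and were taken as log2 from their range. How they were corrected and centred is not given here, and each column had the probe order of 1 scanner column, in the group the labels give, with a median of 2.46. The submitters' processing notes name affy without a version.

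Intensities were corrected by normexp using the detection p-values (offset 16), quantile normalised and put on a log2 scale with neqc (limma 3.58.1, R 4.3.3). Tests (lmFit, eBayes, Benjamini-Hochberg) covered the 18172 probes detected at p under 0.05 on 3 or more arrays, and the fit was tested on simulated data. Each gene is its probe of highest mean, named through the platform annotation, in which 34885 probes had 1 symbol, 18 several and 10378 none. A p-value here reflects how much the 3 samples of a group vary, with each probe's variance drawn by eBayes toward that of all tested probes. That variation may be technical, and the number of arrays limits the precision. Values on each array are given for every tested member except 3 uncalled Slc6 genes, summarised by range, and values or detection for a set list of carriers. For the pathway lists, the genes with values were picked after the results were seen. Members and lists were chosen with earlier results of these data known. Alternatives were other offsets, scalings, filters, priors, probes and tables, leaving out each array and, chosen after seeing the data, a block on sex read from Xist. Promoters are RefSeq's.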

Additional observations from a re-analysis of the deposited data

How the results depend on the processing

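Over 16 alternatives, 10 of them other settings and 6 leaving out 1 array, Slc6a9 and Slc38a7 were called higher in 14 each and Slc43a1 in 8. The 3 transporters called higher became 1 with no detection filter and 1 in the series matrix with a replicate block; leaving out 1 array gave 1 to 3. With no filter the limma adjusted p of Slc6a9 was 0.0540 and that of Slc43a1 0.0865, with more probes tested. Transporters called lower numbered 1 instead of 0 with an offset of 50, with no background correction, with detection required on every array of a group, with a trended robust prior (Slc38a1 each time) and by the probe of largest variance (Slc38a9), and 0 to 1 when 1 array was left out. The brightest probe of Slc38a9 gave 0.07, and that of largest variance -0.43. Values without 1 array ran from -0.0297 to 0.115 for Slc38a9, -0.0202 to 0.301 for Slc36a1 and -0.280 to 0.0766 for Slc6a19. Over all genes, 763 were higher, 456 to 564 without 1 array, and 508 lower, 303 to 393 without 1 array. Whether the replicate numbers pair the samples is not known. Deviations of same-numbered samples correlated at 0.17, -0.003 and 0.23, which does not settle it. The samples numbered 1 matched array A of each genotype, the arrays with low Xist. The series matrix gave 550 higher and 361 lower genes without the replicate block and 377 higher and 252 lower with it. In the blocked fit Slc6a9 had 1.63 (limma adjusted p = 0.0640) and Slc38a7 0.81 (0.0536). With the sex block Slc6a9, Slc43a1 and Slc38a7 were again the transporters called. The causes were not tested. Genes near background are limited by it: raw signals of Slc6a9 and Slc38a7 ran from 47.2 to 107, where array medians were 40.5 to 44.3.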

Other observations

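Slc15a2, a proton-coupled carrier of small peptides outside the families described, was singled out after its values were seen. It was at 4.22, 6.84 and 7.60 on Fnip1-null arrays A, B and C and at 6.78, 7.23 and 4.30 on wild-type arrays A, B and C. Detection was on 2 arrays of each genotype, and Fnip1-null array A and wild-type array C stood at background. The log2 fold change was 0.12 with a 95% interval of -1.93 to 2.16 (limma adjusted p = 0.954), so the spread within each genotype was far larger than the difference between them.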
